A study of Mus musculus with 8 samples.

Results

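Classical monocytes are the Ly6C-high white blood cells that leave the bone marrow, circulate in the blood and are recruited to inflamed tissue and tumors. This account covers the classical monocytes of the blood library of a single-cell study of mice that carried a subcutaneous tumor of MOPC cells (murine oropharyngeal carcinoma), and compares cells stained with hashtag antibodies 1 to 4 with cells stained with hashtags 5 to 8. The cells were chosen by their own RNA values: a cell was counted as a classical monocyte where it held at least 2 unique molecular identifiers (UMIs, each standing for 1 captured RNA molecule) of Ly6c2, at least 1 each of Ccr2 and Csf1r, no Siglech, and less than 2% of its UMIs from S100a8 and S100a9 together. The rule was met by 502 of 7763 blood cells (6.47%), out of 20012 cells in the whole series, and 456 of the 502 also carried a single hashtag.

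The mice were C57BL6/J females, and the labels list WT mice and mice of 1 gene knockout model, named only Genotype_02, in every library. All groups carried the tumor, spelled MPOC in the labels, and no age is given in the sources used here. Live cells had been sorted through 2 gates, one for Gr1+ cells without NK1.1, FcRe, Ter119, B220 or CD3 and one for Gr1- cells with cKit. The sources say that cells were hashtagged by mouse, organ and treatment, but they tie no hashtag to a mouse or a genotype, so what separates hashtags 1-4 from hashtags 5-8 is not stated here, and the hashtag was taken as the replicate, 4 in each group. The comparison of these 8 hashtags was proposed with earlier results of these data known, so the p-values speak to the spread among hashtags alone and lend no independent support to the split.

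Interferons are secreted antiviral proteins. Type I interferon binds the receptor IFNAR1/IFNAR2 and activates a complex that includes STAT2 and IRF9, which binds the interferon-stimulated response element (ISRE) in front of target genes. Interferon gamma binds another receptor, IFNGR1/IFNGR2. The target genes include sensors and effectors against viral RNA, the class I antigen presentation machinery, and the transcription factor genes Irf7 and Stat2 themselves. Monocytes respond readily to interferon.

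The 8 hashtags held 22, 85, 54 and 61 cells (hashtags 1 to 4) and 68, 72, 45 and 49 cells (hashtags 5 to 8), with 201371 to 840090 summed UMIs. Cells of hashtags 5-8 held more UMIs. The median was 9736, 9654, 9772 and 9812 UMIs per cell in hashtags 1 to 4 and 11706, 11661, 11448 and 11749 in hashtags 5 to 8 (exact two-sided permutation test, p = 0.0286, the smallest that 4 against 4 allows). Median genes per cell were 2871 to 2927 against 3159 to 3342 with the same p. A higher median of UMIs in hashtags 5-8 was also measured in blood neutrophils (8.09%, p = 0.0286, exact permutation test) and in marrow classical monocytes (34.4%, p = 0.0286, exact permutation test). In spleen classical monocytes the median was 10.9% higher (p = 0.0571, exact permutation test). Mitochondrial UMIs were 1.03% ± 0.132 (SD, n = 4) and 1.19% ± 0.0622 (n = 4; exact permutation p = 0.114). The factor XIII gene F13a1, a classical monocyte marker that the rule did not use, was at 949 to 1513 CPM (UMIs of a gene scaled to a common library total) in all 8 hashtags and at 1.32 to 7.28 CPM in blood neutrophils. Of other cells' markers, tumor, epithelial, stromal and endothelial genes summed to 0 to 1.68 CPM, platelet genes to 1.86 to 17.7 CPM and T and NK cell genes to 0 to 199 CPM over the 8 hashtags. B cell genes summed to 129 to 139 CPM in hashtags 1-4 and 87.5 to 145 CPM in hashtags 5-8, and neutrophil genes to 258 to 577 and 258 to 363 CPM. The groups lay apart for the macrophage list, at 1512 to 1957 against 525 to 915 CPM, mostly Apoe, with C1qa, Cd5l and Vcam1 at 0, and for the dendritic cell list, at 444 to 541 against 168 to 266 CPM, which includes Bst2. The basophil, mast and progenitor list lay higher in hashtags 5-8, at 20.2 to 50.3 against 78.0 to 144 CPM, mostly Prtn3, with Cpa3 and Mcpt8 at 0. The part of such cells in the results was not tested. Fewer cells of a type in a sum and less RNA per cell cannot be told apart from sums alone, so values per cell are given for the genes the results turn on.

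Of 7421 genes with at least 50 summed UMIs, 399 (5.38%) differed between the hashtag groups by edgeR's quasi-likelihood test at an adjusted p (Benjamini-Hochberg) under 0.05, the threshold for "called" in what follows. The 399 include Ly6c2, Csf1r and S100a9, whose values chose the cells. In hashtags 5-8, 244 genes (3.29%) were lower and 155 (2.09%) were higher. The lower genes went further: 122 of them were lower by more than 2-fold and 56 by more than 4-fold, against 22 and 5 of the higher genes. The median log2 fold change of all tested genes was 0.02. Fold changes are log2 values of hashtags 5-8 over hashtags 1-4, with the standard error (SE). Where groups are said not to overlap, this describes the values and is no further test. Some genes that were not called did not overlap either, for example Gbp7, Zfp36 and Tubb5. The share of all tested genes without overlap is not given here.

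**Figure D1:**
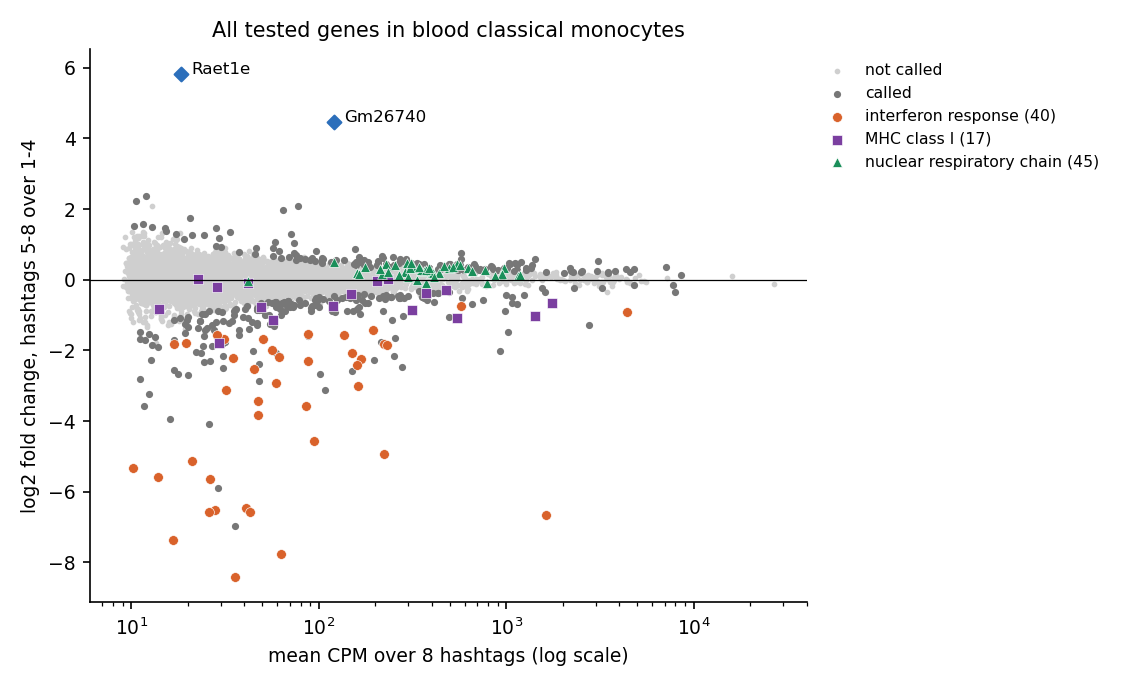
Each point is 1 of the 7421 tested genes in blood classical monocytes, by mean CPM over the 8 hashtags (log axis) and log2 fold change of hashtags 5-8 over 1-4. All 40 interferon response genes lie below 0, the class I genes lie mostly below 0 and the nuclear respiratory chain genes mostly above it; the fold of a gene with 0 UMIs in a group is a fitted value with no exact size.

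Interferon response genes were the main difference. Of 51 listed genes 49 were in the file, 40 passed the UMI minimum, and all 40 were called lower in hashtags 5-8, where 3.29% of all tested genes were; their median log2 fold change was -2.73. The 9 others held too few UMIs to be tested. Summed over the list, the level was 13610 to 15960 CPM in hashtags 1-4 and 4136 to 4593 CPM in hashtags 5-8.

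The promoters of several of these genes carry the ISRE core. The list was made of genes held to respond to interferon, so a high share with the core follows from its choice. That share lends no support to the contrast between the hashtag groups. The core was searched as GAAANNGAAA and as its reverse complement TTTCNNTTTC, which covers both strands, in the 250 bases before each start in the RefSeq promoter table (build GRCm38.p6). Of the 40 genes, 32 had an entry, and 14 of these (43.8%) held the core, against 221 of 5977 tested genes with an entry (3.70%) and 936 of 27025 genes in the whole table (3.46%). Among the other genes called lower it was found in 25 of 171 (14.6%), and among genes called higher in 4 of 121 (3.31%). A match is a string of letters and no measured binding. In the stretches that follow, read 5′ to 3′ on the strand of the gene, capitals mark every base in a match, neighbouring or overlapping matches included.
Oas1a, chr5:120907526-120907570, minus strand: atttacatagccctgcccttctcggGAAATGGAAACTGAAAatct
Rsad2, chr12:26456538-26456597, minus strand: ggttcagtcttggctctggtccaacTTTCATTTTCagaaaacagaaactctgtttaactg
Ifit1, chr19:34640760-34640819, plus strand: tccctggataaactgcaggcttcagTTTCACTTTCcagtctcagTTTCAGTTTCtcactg
Isg15, chr4:156200862-156200921, minus strand: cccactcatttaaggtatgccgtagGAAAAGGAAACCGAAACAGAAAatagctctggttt
Stat2, chr10:128270251-128270310, plus strand: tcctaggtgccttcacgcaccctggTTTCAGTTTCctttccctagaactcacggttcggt
Bst2, chr8:71537568-71537627, minus strand: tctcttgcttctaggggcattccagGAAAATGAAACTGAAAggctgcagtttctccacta

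Several of the antiviral effector genes were at or near 0 in hashtags 5-8, while others, such as Ifitm3 and Bst2, stayed well above it. Oas1a, a synthetase of the 2-5A signal that switches on RNase L, was at 84.4, 70.2, 70.8 and 61.1 CPM in hashtags 1 to 4 and at 0 UMIs in all of hashtags 5 to 8, at least 63.1-fold lower against a floor of 3 counts over the group (adjusted p = 6.63e-12). Its relative Oasl2 was at 154, 137, 123 and 90.8 CPM against 0, 0, 1.97 and 0 CPM, 267 UMIs against 1 (a ratio of 335, with a 95% counting interval of 59.5 to 13300). The groups did not overlap for either gene. Rsad2, which makes a chain-ending nucleotide and is also called viperin, was at 84.4, 40.5, 44.7 and 38.0 CPM against 0, 1.20, 1.97 and 0 CPM. Ifit1, which binds viral RNA ends, held 50 UMIs in hashtags 1-4 and 1 in hashtags 5-8 (a ratio of 62.7, interval 10.7 to 2520), and Ifit2 held 73 against 0.

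Genes with more counts gave firmer folds. Ifi27l2a, a small mitochondrial membrane protein gene induced by interferon, was the most abundant of the strongly lower genes, at 4355, 3175, 2462 and 2898 CPM in hashtags 1 to 4 and 33.7, 31.2, 27.5 and 30.3 CPM in hashtags 5 to 8 (log2 fold change -6.67 ± 0.15 SE, adjusted p = 1.09e-24). Slfn5, a Schlafen family gene, was at 387, 412, 487 and 438 CPM against 9.99, 9.60, 19.7 and 20.2 CPM (-4.94 ± 0.17, adjusted p = 1.69e-19). Isg15, a ubiquitin-like modifier, was at 209, 154, 198 and 169 CPM against 9.99, 8.40, 7.87 and 1.68 CPM (-4.56 ± 0.24, adjusted p = 9.41e-15). In each of the 3 genes the groups lay far apart, and the spread within a group was small beside the gap. At the other end of the list, the membrane protein gene Ifitm3 stayed abundant, at 5327 to 6033 CPM against 2784 to 3320 CPM (-0.92 ± 0.05, adjusted p = 5.04e-14). Bst2, which tethers budding viruses to the cell, was at 231 to 348 CPM against 48.8 to 71.2 CPM (-2.23 ± 0.15, adjusted p = 1.18e-12).

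**Figure D2:**
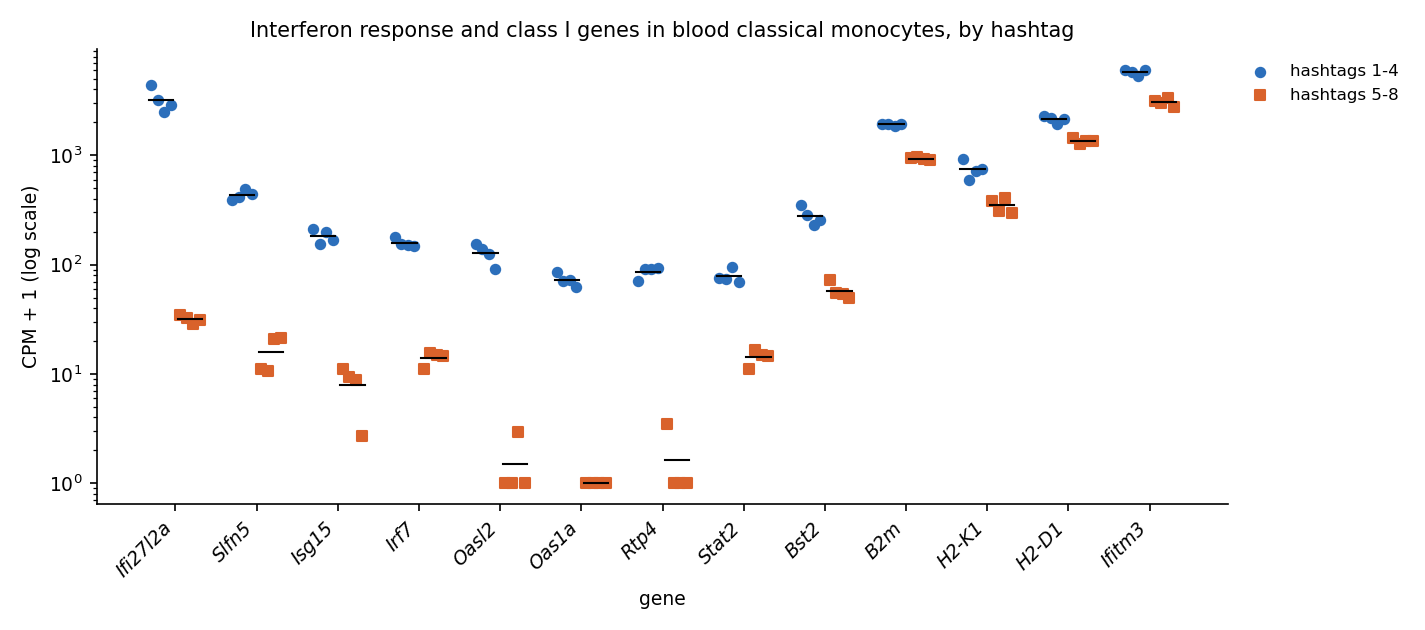
CPM + 1 (log axis) of 13 interferon response and class I genes in blood classical monocytes; each point is 1 hashtag (circles, hashtags 1-4; squares, hashtags 5-8) and each bar the mean of 4. For every gene shown the 2 groups do not overlap, from Oas1a with 0 UMIs in hashtags 5-8 to Ifitm3 at 2784 CPM or more.

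Of the 244 lower genes 52 belong to the interferon response, class I and IRG lists, and 192 do not. The lists do not hold every interferon target, and whether genes outside them respond to interferon was not tested. The most strongly lower named genes outside the lists were Ifi206, a PYHIN family gene at 57.8 to 80.2 CPM against 0, 0, 0 and 1.68 CPM, and Lgals3bp, a secreted glycoprotein gene at 46.2 to 69.5 CPM against 1.25, 1.20, 0 and 0 CPM (120 UMIs against 2, a ratio of 75.2, interval 20.4 to 628). Sdc3, a heparan sulfate carrier, was at 74.5, 46.4, 27.96 and 51.2 CPM against 6.24, 1.20, 0 and 1.68 CPM (-4.08 ± 0.46, adjusted p = 7.25e-08). Of genes outside the rule for named genes, picked after their values were seen, Rnf213, a large ubiquitin ligase gene, was at 162 to 246 CPM against 9.84 to 38.4 CPM (-3.12 ± 0.22) and Samd9l at 62.8 to 98.8 CPM against 3.75 to 19.2 CPM (-2.88 ± 0.30). Ifi203, another PYHIN gene, was at 308 to 343 CPM against 35.4 to 87.6 CPM (-2.27 ± 0.15). None of these genes overlapped between the groups.

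Genes of the signaling chain were lower too. Irf7, the transcription factor that amplifies type I interferon, was at 179, 155, 151 and 147 CPM against 9.99, 14.4, 13.8 and 13.5 CPM (-3.58 ± 0.20, adjusted p = 1.88e-14). Stat2 was at 67.7 to 93.2 CPM against 9.99 to 15.6 CPM (-2.53 ± 0.24) and Irf9 at 69.0 to 91.3 CPM against 19.7 to 31.2 CPM (-1.67 ± 0.21), both called. The RNA sensors Ddx58, which encodes RIG-I, and Ifih1, which encodes MDA5, were lower by log2 values of -3.12 ± 0.33 and -2.20 ± 0.27, and the DNA sensor Cgas by -1.62 ± 0.42 (adjusted p = 0.0124; not called without hashtag 8 or by DESeq2). Usp18, the brake on the type I receptor, held 119 UMIs in hashtags 1-4 and 1 in hashtags 5-8.

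The receptor genes were not called. Ifnar1 was at 79.5, 53.6, 50.3 and 47.9 CPM in hashtags 1 to 4 and at 51.2, 66.0, 55.1 and 70.7 CPM in hashtags 5 to 8 (0.17 ± 0.19, adjusted p = 0.755). Ifnar2 was at 225 to 238 CPM against 155 to 214 CPM (-0.30 ± 0.11, adjusted p = 0.129). For the gamma receptor, Ifngr1 gave -0.09 ± 0.09 (adjusted p = 0.703) and Ifngr2 -0.22 ± 0.13 (adjusted p = 0.434).

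The difference was seen across cells. With each cell thinned to 5000 UMIs, the median number of interferon response UMIs was 81, 69, 64 and 69 in hashtags 1 to 4 and 22, 22, 23.5 and 20.5 in hashtags 5 to 8. At full depth the medians were 127 to 141 against 49 to 54, although cells of hashtags 5-8 were deeper. Cells of hashtags 5-8 ranged from 7 to 43, and 24 of 214 cells of hashtags 1-4 (11.2%) lay at or under 43. Cells of hashtags 1-4 were more varied, from 9 to 254. A cell of hashtags 1 to 4 held a median of 19.5 to 35 Ifi27l2a UMIs, and 23 of 222 cells held none (10.4%), against 186 of 234 cells in hashtags 5-8 (79.5%), where no cell held more than 6. Among blood neutrophils, which are shallower cells (2825 to 3322 median UMIs), 44.5 to 61.0% and 92.6 to 94.3% held no Ifi27l2a UMI.

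**Figure D3:**
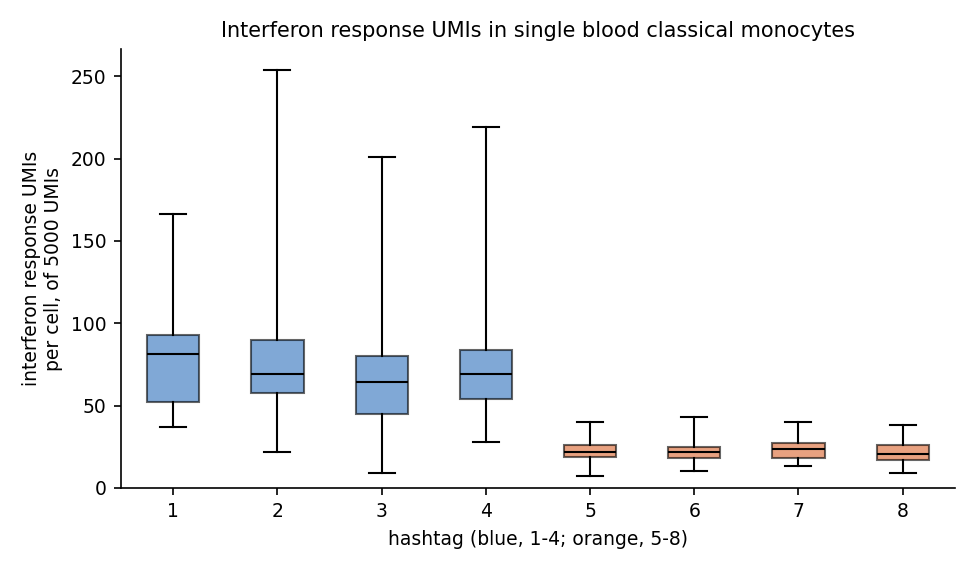
Interferon response UMIs per blood classical monocyte after thinning every cell to 5000 UMIs, by hashtag; boxes span the quartiles, the line is the median and whiskers reach the lowest and highest cell. The medians of hashtags 1 to 4 (64 to 81) lie above the highest cell of hashtags 5 to 8 (43).

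Class I antigen presentation, which shows peptides from inside the cell to CD8 T cells, was lower with a smaller fold. Of 17 tested genes 10 were called lower and none higher (median log2 fold change -0.66), where 3.29% of all tested genes were lower. The light chain gene B2m was at 1947, 1922, 1849 and 1936 CPM in hashtags 1 to 4 and 935, 964, 923 and 909 CPM in hashtags 5 to 8 (-1.03 ± 0.06, adjusted p = 3.74e-14). The heavy chain genes H2-K1 (-1.07 ± 0.11) and H2-D1 (-0.66 ± 0.06) and the nonclassical class I gene H2-T23 (-0.86 ± 0.10) were lower as well, and in all 4 genes the groups did not overlap. H2-K1 and H2-D1 are close paralogs, so their split of reads is uncertain. Of 7 tested guanylate-binding protein and IRG genes, GTPases that act on parasite vacuoles and are classic targets of interferon gamma, 2 were called lower (Irgm1, -2.38 ± 0.28; Irgm2, -1.15 ± 0.34, adjusted p = 0.0365, not called under 12 of the alternatives). The other 5 were not called, among them Gbp7 (-0.62 ± 0.23, adjusted p = 0.134) and Igtp (-1.05 ± 0.37, adjusted p = 0.0956).

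Class II genes, which present peptides to CD4 T cells, were lower in the sums but sat in few cells. Cd74, the class II chaperone, was at 3590, 673, 934 and 801 CPM in hashtags 1 to 4 and 152, 334, 868 and 53.9 CPM in hashtags 5 to 8 (-2.02 ± 0.44, adjusted p = 0.00314), and H2-Aa and H2-Eb1 gave -2.46 ± 0.55 and -2.60 ± 0.58. Hashtag 1 stood far above the rest and hashtag 7 lay inside the range of hashtags 1-4. Cells with at least 100 UMIs of H2-Aa, H2-Ab1, H2-Eb1 and Cd74 together numbered 4, 3, 2 and 3 in hashtags 1 to 4 and 0, 1, 3 and 0 in hashtags 5 to 8, and held 65.1 to 92.4% of these UMIs in hashtags 1-4, while the median cell of each hashtag held 0 or 1. Without those cells Cd74 was at 460, 173, 425 and 200 CPM against 152, 112, 296 and 53.9 CPM, and the groups still overlapped. Without hashtag 1 the log2 fold change of Cd74 was -1.24 and that of H2-Ab1 -1.24 with an adjusted p of 0.0619, and Cd74 was not called by DESeq2 (adjusted p = 0.307) or with a cell rule that left out Ly6c2 (-0.69, adjusted p = 0.326). With at least 4 Ly6c2 UMIs required per cell the folds were larger, -3.40 for Cd74, -5.40 for H2-Aa, -5.78 for H2-Eb1 and -4.64 for H2-Ab1. Of the dendritic cell markers Xcr1 was at 0, Clec9a held 2 and 0 UMIs in the 2 groups, and Cd209a was at 39.7, 3.57, 39.1 and 21.5 CPM against 1.25, 1.20, 45.2 and 1.68 CPM, where hashtag 7 was again high; their part in the class II values was not tested.

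Most genes that mark the classical monocyte were not called, but a larger share of them was called than of all tested genes (5.38%). The values of Ly6c2, Ccr2, Csf1r, S100a8 and S100a9 chose the cells and are a description: Ly6c2 was at 1619, 1290, 1402 and 1298 CPM in hashtags 1 to 4 and 763, 800, 1003 and 924 CPM in hashtags 5 to 8, Ccr2 at 925 to 967 CPM and 826 to 959 CPM, Csf1r at 367 to 402 CPM and 268 to 344 CPM, and S100a9 at 159 to 602 CPM and 183 to 202 CPM. At the edge of the rule, 40 cells held exactly 2 Ly6c2 UMIs and 45 further cells met every other condition with 1. Without the Ly6c2 condition hashtags 1 to 4 held 28, 105, 67 and 69 cells, against 22, 85, 54 and 61. Hashtags 5 to 8 held 104, 110, 63 and 73, against 68, 72, 45 and 49, so the condition left out more of their cells in sum. Without it 106 genes were called higher and 214 lower. The share of blood cells was not computed without it. Of 21 tested classical monocyte genes beyond these, 5 were lower and 1 higher (median -0.03). Over all tested genes 3.29% were lower and 2.09% higher. F13a1 differed by 0.00 ± 0.10 (adjusted p = 0.998), and the lysozyme gene Lyz2 by -0.12 ± 0.04 (adjusted p = 0.0872). Plac8, a cysteine-rich gene abundant in Ly6C-high monocytes, was at 3705, 3847, 3858 and 4206 CPM against 2277, 1267, 1410 and 1491 CPM (-1.28 ± 0.10, adjusted p = 6.68e-11). Ms4a4c (-0.74 ± 0.10, also on the interferon response list) and Ms4a6c (-0.35 ± 0.08) were lower by less. Lyz1, another lysozyme gene, was lower as well, at 0, 69.0, 18.6 and 1.65 CPM against 0 to 4.80 CPM, with the UMIs mostly in hashtags 2 and 3.

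Of 18 nonclassical monocyte genes 4 were lower and none higher (median -0.32), led by the fractalkine receptor Cx3cr1 at 242 to 372 CPM against 114 to 195 CPM (-0.88 ± 0.14, adjusted p = 3.72e-05). Pou2f2, Apoc2 and Spn, also called, lost the call under 4 of 22, 7 of 22 and 16 of 21 alternatives. Cx3cr1 kept it under all 22. Over all tested genes 3.29% were lower. The high-affinity IgG receptor gene Fcgr1 was at 134, 78.6, 104 and 95.8 CPM against 27.5, 18.01, 9.84 and 28.6 CPM (-2.16 ± 0.23, adjusted p = 3.84e-08), while 20 of 23 tested Fc receptor and signaling genes were not called. Lgals9, which encodes galectin-9, was at 84.4 to 111 CPM against 18.01 to 31.2 CPM (-2.09 ± 0.20, adjusted p = 5.28e-09). Nampt, the rate-limiting enzyme of NAD salvage, was at 52.2 to 74.5 CPM against 19.7 to 33.7 CPM (-1.22 ± 0.21, adjusted p = 0.000223). For Cx3cr1, Fcgr1, Lgals9 and Nampt the groups did not overlap.

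Of 20 tested lipid genes 4 were lower, 2 were higher and 14 were not called (median -0.09), where 3.29% of all tested genes were lower and 2.09% higher. Apoe, the lipid carrier, was at 1803, 1580, 1273 and 1377 CPM against 610, 734, 332 and 453 CPM (-1.47 ± 0.13, adjusted p = 1.58e-09). Lipoprotein lipase (Lpl, -1.76 ± 0.33) and the prostaglandin-degrading enzyme Hpgd (-0.96 ± 0.14) were lower, and the fatty acid binding protein gene Fabp5 was higher (0.69 ± 0.18, adjusted p = 0.0198; not called without hashtag 4, 7 or 8 or by DESeq2, adjusted p = 0.0666 to 0.0843). Apoe is also listed as a macrophage marker; the macrophage complement genes C1qa, C1qb and C1qc held 0, 3 and 0 UMIs in hashtags 1-4 and 0, 19 and 1 in hashtags 5-8, with C1qb at 26.9 CPM in hashtag 8 and at most 4.97 CPM elsewhere. Npc2, which carries cholesterol out of the lysosome, was at 1290 to 1326 CPM against 803 to 865 CPM (-0.65 ± 0.06, adjusted p = 6.93e-09). The oxidase subunits split, with the catalytic subunit gene Cybb lower (-0.50 ± 0.07) and its partner Cyba higher (0.25 ± 0.05).

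Among all tested genes 3.29% were lower, a smaller share than in the AP-1 and glucocorticoid lists that follow. Of 16 tested AP-1 and immediate early genes 3 were lower and none higher, among them Atf3 (-0.84 ± 0.19, adjusted p = 0.00522) and the phosphatase gene Dusp1 (-0.87 ± 0.21, adjusted p = 0.00812; 0.112 without hashtag 2). Of 11 genes induced by glucocorticoids 5 were lower, including Fkbp5 (-0.87 ± 0.21) and Txnip (-0.53 ± 0.11), and Anxa1 was higher (0.45 ± 0.09); the Fkbp5 call was lost without hashtag 2 (adjusted p = 0.0805). NF-kB and inflammatory feedback genes gave 1 lower of 20 (Rel, adjusted p = 0.0421, not called under 11 of 22 alternatives), and chemokines and cytokines 1 lower of 8 (Il18, -1.07 ± 0.25, not called without hashtag 3 or hashtag 6). None of 13 cell cycle and 18 apoptosis and survival genes was called.

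Most genes higher in hashtags 5-8 changed by small factors. The nuclear genes of the respiratory chain gave 17 higher and none lower of 45 (median 0.26), for example Cox5b, a cytochrome oxidase subunit, at 440 to 486 CPM against 579 to 721 CPM (0.45 ± 0.08, adjusted p = 0.000614). Of the 13 genes of the mitochondrial genome 5 were higher (median 0.29), including mt-Nd4l (0.83 ± 0.16) and mt-Cytb (0.41 ± 0.08). Gapdh, Pkm and Ldha were the 3 called of 22 hypoxia and glycolysis genes, all higher (0.44 to 0.57). Folding enzymes of the endoplasmic reticulum were higher in 4 of 23 heat shock and unfolded protein genes, with Pdia6 at 151 to 213 CPM against 247 to 347 CPM (0.66 ± 0.12, adjusted p = 0.000448), Calr at 0.63 ± 0.13 and Pdia3 at 0.44 ± 0.09. Over all tested genes 2.09% were called higher. The cells of hashtags 5-8 also held more UMIs and genes each; with cells thinned to 1000 UMIs, Pdia6, Gapdh, Cox5b, Pdia3 and Calr gave 0.62, 0.38, 0.29, 0.23 and 0.20 and were not called.

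Several abundant genes were higher. S100a11, a calcium-binding S100 gene, was at 1117, 1224, 1226 and 979 CPM against 1854, 1615, 1334 and 2055 CPM (0.59 ± 0.09, adjusted p = 3.15e-05). The lectin gene Lgals1 was at 487, 400, 406 and 411 CPM against 604, 658, 769 and 840 CPM (0.77 ± 0.10, adjusted p = 8.93e-07), and the intermediate filament gene Vim at 2322 to 2794 CPM against 3334 to 4422 CPM (0.53 ± 0.07, adjusted p = 2.91e-06). S100a10 (0.49 ± 0.09), S100a6 (0.32 ± 0.05) and Anxa2 (0.48 ± 0.07) were higher too. Lgals1 and Vim were taken up after their values were seen, since they lie outside the rule for named genes. Trem2, a lipid-sensing receptor of macrophages, was at 29.8, 49.99, 54.1 and 47.9 CPM against 84.9, 88.8, 100.3 and 133 CPM (1.05 ± 0.19, adjusted p = 0.000241).

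Of 17 tested neutrophil-like monocyte and granule genes 7 were higher and 1 lower. Over all tested genes 2.09% were higher and 3.29% lower. The 7 include S100a11 and S100a6, given above. Lcn2, the iron-scavenging lipocalin, was at 19.9, 35.7, 37.3 and 19.8 CPM against 165, 99.6, 41.3 and 204 CPM (2.10 ± 0.32, adjusted p = 2.26e-05), and with no limit on S100a8 and S100a9 it was at 0.99 with an adjusted p of 0.109. Prtn3, the protease of primary granules made in progenitors, was at 24.8, 19.1, 41.0 and 21.5 CPM against 132, 62.4, 88.5 and 128 CPM (1.98 ± 0.26, adjusted p = 1.86e-06). Other progenitor granule genes were scarce: Elane held 1 and 7 UMIs, Ctsg 4 and 25, Mpo 1 and 1 and Kit 1 and 0. The mature neutrophil gene Retnlg was lower (-1.16 ± 0.30, adjusted p = 0.014; not called without hashtag 2), with 70.2 and 69.0 CPM in hashtags 2 and 3 against 18.5 to 27.5 CPM in the other 6; the same 2 hashtags had the highest S100a8 and S100a9 share, 0.122% and 0.109% of UMIs against 0.0332 to 0.0756%. Hdc was lower too (-2.80 ± 0.64) and likewise highest in hashtags 2 and 3; it was not called by DESeq2 (adjusted p = 0.288). The neutrophil marker list summed to 258 to 577 CPM against 258 to 363 CPM, and its part in these values was not tested.

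The 2 largest gains lay outside the rule for named genes and were picked after their values were seen. Raet1e, which encodes a stress ligand of the NK cell receptor NKG2D (chr10:22158542-22189697, GRCm38.p6), was at 0, 0, 0 and 1.65 CPM in hashtags 1 to 4 and at 40.0, 40.8, 29.5 and 35.4 CPM in hashtags 5 to 8, 1 UMI against 102 (a ratio of 81.4, counting interval 14.3 to 3250; adjusted p = 7.25e-09). Gm26740, a gene model known by number only (chr10:22186285-22306382), was at 0, 1.19, 39.1 and 0 CPM against 226, 256, 246 and 192 CPM (4.48 ± 0.36, adjusted p = 9.37e-11). The 2 loci overlap, and whether the counting kept them apart is not given in the sources used here. Gm26740 was found in 3 of 222 cells of hashtags 1-4 (1.35%) and in 187 of 234 cells of hashtags 5-8 (79.9%). In each of the 3 cells a second hashtag was close behind the first, at ratios of 3.18, 3.36 and 3.68, where the median ratio in hashtags 1-4 was 180; a hashtag margin of 5 times would leave out all 3. Without hashtag 3 the fitted log2 fold change was 8.16. Among blood neutrophils 0.469 to 3.98% of cells held it in hashtags 1-4 and 93.2 to 95.9% in hashtags 5-8.

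**Figure D4:**
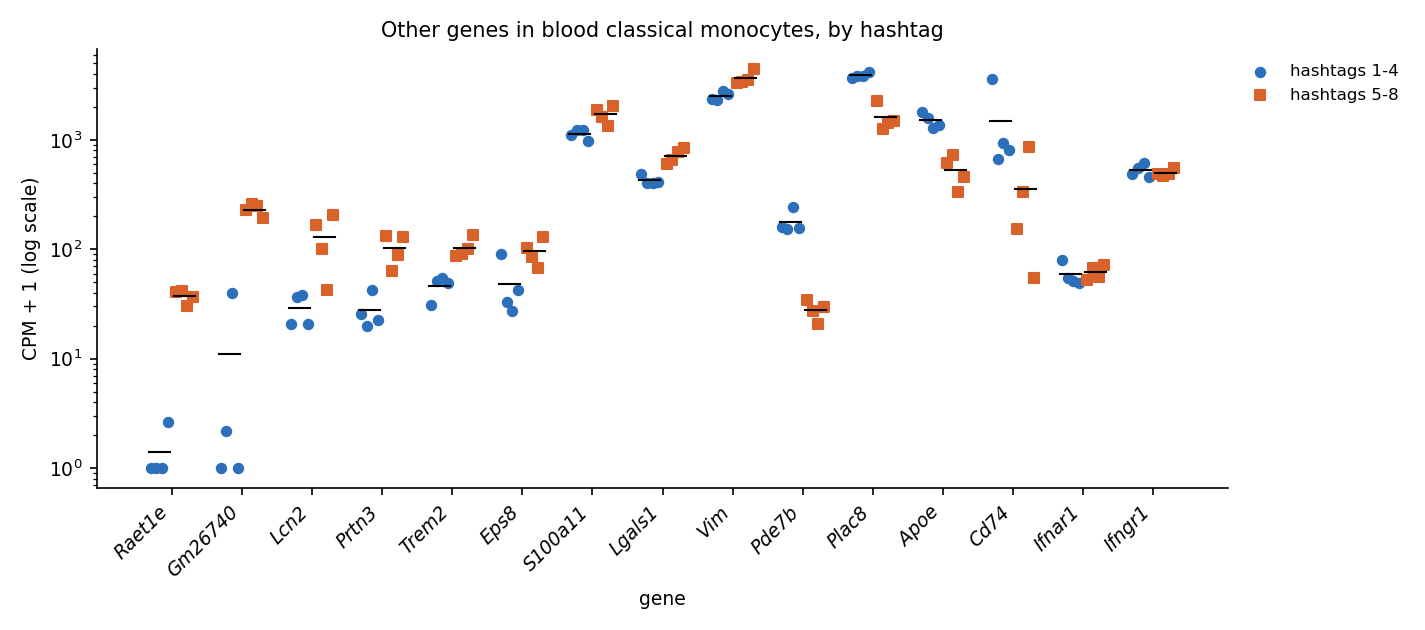
CPM + 1 (log axis) of 15 further genes in blood classical monocytes; each point is 1 hashtag (circles, 1-4; squares, 5-8) and each bar the mean of 4. Raet1e and Gm26740 are near 0 in hashtags 1-4 except 39.1 CPM of Gm26740 in hashtag 3, Cd74 overlaps between the groups with 3590 CPM in hashtag 1, and the receptor genes Ifnar1 and Ifngr1 overlap.

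At the cell surface no antibody passed. Of 18 surface antibodies counted in the same cells, 0 (0%) were called by edgeR over the 18, 2 had an unadjusted p under 0.05, and 0 passed an exact permutation test after adjustment. Ly6C, the protein of Ly6c2, made up 27.9, 28.4, 26.3 and 24.0% of surface antibody counts in hashtags 1 to 4 and 23.4, 27.7, 27.1 and 23.2% in hashtags 5 to 8 (-0.07 ± 0.09, adjusted p = 0.542). CD44, a hyaluronan receptor, was at 30.3 to 35.8% against 37.7 to 40.3%, without overlap (0.20 ± 0.06, adjusted p = 0.207), while its RNA gave -0.20 ± 0.09 (Cd44, adjusted p = 0.265). CD11b, the integrin alpha M chain, was at 4.67 to 6.96% against 4.07 to 4.77% (-0.37 ± 0.13, adjusted p = 0.207), and its RNA gave 0.25 ± 0.09 (Itgam, adjusted p = 0.153). CD64, the protein of Fcgr1, made up 0.0448 to 0.0993% against 0.0327 to 0.0804% (-0.55 ± 0.44, adjusted p = 0.472), from 491 counts in all. With all antibody counts, hashtags included, as the library size, CD44 was at 0.58 and called (adjusted p = 0.0158), and without hashtag 4 CD11b was called (-0.46, adjusted p = 0.044).

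Classical monocytes made up 2.80, 5.59, 5.05 and 7.43% of the blood cells of hashtags 1 to 4 and 7.72, 8.74, 8.60 and 7.94% of those of hashtags 5 to 8 (exact permutation p = 0.0286). These are shares of sorted cells, whose numbers had been evened out before the sort. Among cells with under 2% of UMIs from S100a8 and S100a9 the shares were 33.4% ± 5.59 (SD, n = 4) and 38.1% ± 1.93 (n = 4; exact permutation p = 0.2). With all cells thinned to 1000 UMIs the rule took 0.309% and 0.254% of cells (exact permutation p = 0.629), and few cells still met the rule at that depth.

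The same contrast was then read in cells that the rule did not use. Of 9681 genes tested in 708 marrow classical monocytes 239 (2.47%) were lower and 85 (0.878%) higher; in 477 spleen classical monocytes 138 of 8479 (1.63%) were lower and 40 (0.472%) higher; and in 3783 blood neutrophils 207 of 7478 (2.77%) were lower and 36 (0.481%) higher. Interferon response genes were called lower in 39 of 39, 35 of 40 and 40 of 42 tested cases, with medians of -2.25, -2.45 and -3.01. Ifi27l2a gave -6.61 ± 0.15 in marrow monocytes, -6.53 ± 0.28 in spleen monocytes and -5.68 ± 0.19 in blood neutrophils, from lower levels than in blood monocytes, 603 to 874 CPM in the hashtags 1-4 of marrow. Raet1e was at 112 to 133 CPM in the neutrophils of hashtags 5-8 and 0 to 2.30 CPM in those of hashtags 1-4, and Gm26740 at 1219 to 1395 CPM and 1.57 to 36.2 CPM. Whether a hashtag marks the same mouse in each organ is not stated.

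**Figure D5:**
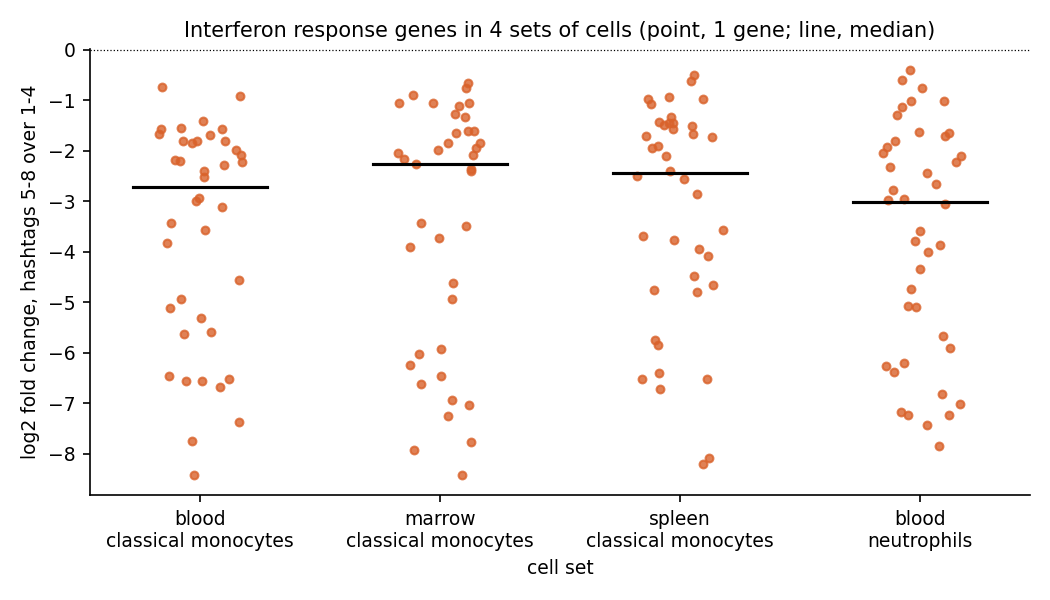
Log2 fold change of hashtags 5-8 over 1-4 for each tested interferon response gene (points) in 4 sets of cells, with the median as a line. The medians are -2.73 in blood classical monocytes, -2.25 in marrow, -2.45 in spleen and -3.01 in blood neutrophils; folds of genes with 0 UMIs in a group are fitted values with no exact size.

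Differences between the sets were tested as an interaction. Against marrow monocytes 13 of 7362 genes (0.177%) differed. Prtn3 was at 2121 to 2867 CPM in marrow and differed there by 0.07 ± 0.07, so the gain in blood was larger by 1.92 ± 0.27 (adjusted p = 0.000186). Lgals1 (0.76 ± 0.13), Vim (0.57 ± 0.10), S100a11 (0.60 ± 0.14) and mt-Nd4l (1.01 ± 0.20) gained more in blood than in marrow, where none of them was called. Bst2 (-1.12 ± 0.19) and Plac8 (-0.68 ± 0.14) were lower by more in blood. Against spleen monocytes 1 of 7372 genes (0.0136%) differed, Prtn3 again (3.10 ± 0.54, adjusted p = 0.0268), and 417 had an unadjusted p under 0.05.

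Against blood neutrophils 82 of 5991 genes (1.37%) differed, 57 with a higher and 25 with a lower log2 fold change in monocytes. Both sets came from the same library and the same 8 hashtags, and this fit left that pairing out. With the hashtag as a block the counts were 71 and 33. With TMM scaling, which removes the shift of -0.11 in the median of neutrophil genes, they were 18 and 39. The values that follow are from the fit without the block. Pde7b, a phosphodiesterase that degrades cyclic AMP, was at 159, 152, 242 and 155 CPM in the monocytes of hashtags 1 to 4 and 33.7, 26.4, 19.7 and 28.6 CPM in those of hashtags 5 to 8 (-2.67 ± 0.19, adjusted p = 8.15e-12), and at 468 to 542 CPM and 375 to 554 CPM in neutrophils (difference of the folds -2.53 ± 0.23, adjusted p = 1.31e-08). Nampt was lower in monocytes and at 0.22 ± 0.17 in neutrophils (difference -1.44 ± 0.29). Ifnar1 was higher in the neutrophils of hashtags 5-8, at 144 to 171 CPM against 61.9 to 92.6 CPM (1.04 ± 0.12, adjusted p = 8.31e-06), and the log2 fold in monocytes minus that in neutrophils was -0.87 ± 0.23 (adjusted p = 0.0459). Among interferon response genes, Trim30a (-1.49 ± 0.18), Slfn1 (-1.65 ± 0.19), Ddx58 (-1.51 ± 0.37) and Oasl2 were lower by more in monocytes. Herc6 (2.16 ± 0.46), Zbp1 (1.40 ± 0.37) and Ifi204 (0.81 ± 0.21) were lower by less.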

How the data were processed

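The authors deposited raw UMI counts per gene and per antibody for each cell of 4 10x Genomics libraries, made with Cell Ranger 7.0.1 on mm10 per the submitters' processing notes. Whether doublets were removed before deposit and whether counting used strand are not given in the sources used here. The blood library was read for 32285 genes, 10 hashtag and 18 surface antibodies. A cell got the hashtag with the highest count among the first 8 where it reached 20 counts and 3 times the runner-up, which left out 46 of 502 cells (9.16%) in which the second hashtag was too close. Of the 456 cells with a single hashtag, 1 has a barcode that also occurs in another library. No doublet caller was run beyond the hashtag margin.

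Raw counts were summed per hashtag and tested with edgeR 4.0.16 (R 4.3.3; quasi-likelihood test, total UMIs as library size, genes with at least 50 summed UMIs, Benjamini-Hochberg adjusted p under 0.05). Interactions between cell sets were fitted over both sets with the same test. Alternatives used TMM factors, DESeq2 1.42.0, limma 3.58.1 on log2 of the mean per-cell CPM + 10, other gene minimums and cell rules, cells thinned to 1000 UMIs, and each hashtag left out; single measures per hashtag were compared by exact permutation of the 8 hashtags (70 splits, two-sided, scipy 1.17.1). Neutrophils were blood cells with at least 5% of UMIs from S100a8 and S100a9, with Csf3r detected and with no UMI of Csf1r or Ccr2. Counting intervals are exact Poisson intervals at 95% and cover counting error only. The main edgeR fit of genes between the hashtag groups was also run on simulated counts, and the other fits were not. Results of some genes are not reported here. Coordinates are those of the RefSeq tables for GRCm38.p6, matched by symbol.

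The split between hashtags 4 and 5, the members, the gene lists and the promoter search were chosen with earlier results of these data known. The text names the 15 largest changes in each direction of the genes called, if their mean reached 20 CPM, leaving out ribosomal, mitochondrial, hemoglobin and unnamed genes and those of the cell rule, up to 4 members with the smallest p of each list, all surface antibodies and their genes. Of these, the most informative are printed, and genes outside this rule are said to be so or belong to a list being described.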

Additional observations from a re-analysis of the deposited data

Results flagged for a closer look

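In 30 of 266 groups of 4 hashtags 1 hashtag lay apart from the other 3 by Dixon's criterion, which chance flags in about 1 of 20 groups. Among surface antibodies, as a percent of surface antibody counts, hashtag 5 stood high for ckit (0.1888%), CD69 (0.04824%), CD24 (12.07%) and CCR2 (0.2685%). Hashtag 8 stood high for CD115 (3.273%), hashtag 4 for CD11a (15.5%) and hashtag 1 for MHCII (1.797%). The RNA of the class II genes was also highest in hashtag 1, at 3590 CPM for Cd74, 1356 CPM for H2-Aa, 774.7 CPM for H2-Eb1 and 1172 CPM for H2-Ab1. Hashtag 1 stood high too for Rsad2 (84.42 CPM) and Lgals1 (486.7 CPM) and low for Rtp4 (69.52 CPM).

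Several flags rest on 1 or a few UMIs in hashtags 5-8: Oasl2 at 1.967 CPM in hashtag 7, Oas3 and Ifi206 at 1.683 CPM each in hashtag 8, Rtp4 at 2.497 CPM and Usp18 at 1.248 CPM in hashtag 5, and Ifit1 at 1.201 CPM in hashtag 6. In hashtags 1-4 the same holds for Raet1e at 1.651 CPM in hashtag 4. Hashtag 8 stood apart for Ifi211 (18.52 CPM) and S100a6 (6001 CPM). Hashtag 2 stood apart for S100a6 (4644 CPM), Igtp (17.86 CPM), Itgam (253.5 CPM) and Itgal (214.3 CPM). Hashtag 3 stood apart for Pde7b (242.3 CPM), Gapdh (721.3 CPM) and Gm26740 (39.14 CPM).

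The log2 fold change differed from that in other cells by an interaction test, given here as blood classical monocytes minus the other set. Against marrow classical monocytes it was lower for Bst2 (-1.1186) and Plac8 (-0.6767) and higher for Prtn3 (1.9195), mt-Nd4l (1.0080), Lgals1 (0.7594), S100a11 (0.6009) and Vim (0.5670). Against spleen classical monocytes it was higher for Prtn3 (3.0951). Against blood neutrophils it was lower for Oasl2 (-5.0346, a fit that rests on 1 monocyte UMI in hashtags 5-8), Pde7b (-2.5311), Hdc (-2.5037), Slfn1 (-1.6508), Samd9l (-1.6108), Ddx58 (-1.5055), Trim30a (-1.4928), Nampt (-1.4431), Lgals9 (-1.4284), Retnlg (-1.4037), Apoe (-1.1902), Ifnar1 (-0.8711) and B2m (-0.4879). It was higher than in neutrophils for Herc6 (2.1618), Lcn2 (1.7651), Zbp1 (1.4019), Pdia6 (1.1285), Cfp (0.8344), Ifi204 (0.8069), Pdia3 (0.7245), Cox5b (0.5876) and S100a11 (0.5409).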

How the results depend on the processing

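Of 127 called genes that the rule or the text names, 71 kept the call under all 22 alternatives that gave a value, 56 lost it under at least 1, and none changed sign. Thinning cells to 1000 UMIs cost most calls (34), followed by DESeq2 (23), the added cell rule without Ly6c2, chosen after the data were seen (22), and limma (21). The count of higher genes (155) was 20 with thinned cells, 76 by DESeq2 and 95 to 160 with 1 hashtag left out, lowest without hashtag 8; the count of lower genes (244) was 35 with thinned cells, 370 with no limit on S100a8 and S100a9 and 182 to 233 with 1 hashtag left out. The thinned table let 1403 genes be tested, 12 of them interferon response genes, of which 11 were lower; with 1 hashtag left out 37 to 40 were lower. With hashtag as a block, 15 genes had a higher and 12 a lower log2 fold change than in marrow monocytes (6 and 7 without). The counts were 2 and 3 against spleen monocytes (1 and 0 without), and 71 and 33 against neutrophils (57 and 25). Against neutrophils TMM scaling gave 18 higher and 39 lower. Surface antibodies called were 1 with all antibody counts as the library size, and 0 to 1 with 1 hashtag left out. The difference in share of blood cells (3.032 percentage points) was -0.05486 with thinned cells (p = 0.629, exact permutation) and 4.696 among low-S100 cells (p = 0.2, exact permutation). With 1 hashtag left out it was 2.226 to 3.77, that of median UMIs (1898) 1862 to 1962 and that of median genes (338.5) 302.2 to 363.1, each at 0.0571, the smallest exact p that 3 against 4 allows. The fewer genes tested is part of the thinned counts; other causes were not tested.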

Other observations

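Raet1e, Gm26740 and Pde7b, picked after their values were seen, lie within 1.91 Mb of each other on chromosome 10 (Pde7b at chr10:20397052-20725078, GRCm38.p6). The stretch was drawn from Pde7b to Gm26740, so the 3 called of its 6 tested genes were set by that choice and are no result. The others, Hbs1l, Sgk1 and E030030I06Rik, were not called. In the 5 Mb on either side 2 of 15 tested genes were called, Cited2 (-0.59) and Rps12 (0.18). Over all tested genes 399 of 7421 (5.38%) were called. The log2 fold changes of Gm26740 were 6.14, 4.57 and 6.36 in marrow monocytes, spleen monocytes and blood neutrophils, and those of Pde7b -2.36, -1.67 and -0.15.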
